A study of Mus musculus with 6 samples.

Results

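The genes described here encode the enzymes that write, maintain and oxidize DNA methylation and the HP1 proteins that bind methylated histone H3 lysine 9 (H3K9), measured in C2C12 cells with and without a knockout of *Phf2*. The members were chosen by symbol: *Dnmt1*, *Dnmt3a*, *Dnmt3b*, *Uhrf1*, *Tet1*, *Tet2*, *Tet3*, *Cbx1*, *Cbx3* and *Cbx5*. All 10 were among the 55401 genes of the count matrix, each on a single row, and all 10 were among the 17310 that passed the filter on low counts and were tested.

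C2C12 cells are mouse myoblasts of an established line, which form myotubes in low serum, and PHF2 is a histone demethylase that removes H3K9me2. Poly(A)-selected RNA was sequenced from 3 control and 3 *Phf2* KO libraries of cells kept in DMEM with 2% horse serum, 2 d post differentiation. The control libraries, labelled wild type, came from mock cells that had received the Cas9 and ZsGreen plasmid without a *Phf2* guide, and the *Phf2* KO libraries came from cells that had received a pool of plasmids with 4 *Phf2* guides. Both were sorted on ZsGreen fluorescence and kept as pools rather than as single-cell clones, so each group is 1 pool, and a difference between pools cannot be told apart from an effect of *Phf2*. The replicates were wells of a single experiment, and p-values measure the spread between these wells. The estimated counts summed to between 52526109 and 67502788 per library. In bulk RNA, fewer cells of a type and less RNA per cell cannot be told apart.

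DNA methylation of CpG sites is copied at replication by DNMT1, which UHRF1 brings to hemimethylated DNA, while DNMT3A and DNMT3B methylate sites that carried no mark. TET1, TET2 and TET3 oxidize 5-methylcytosine, which opens the way to its removal. The HP1 proteins HP1alpha (*Cbx5*), HP1beta (*Cbx1*) and HP1gamma (*Cbx3*) bind H3K9 methylation and help to compact chromatin, and UHRF1 also reads H3K9 methylation, so the 2 systems meet at this histone residue.

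The targeted gene was measured first. *Phf2* (ENSMUSG00000038025) stood at 102.4, 95.5 and 104.6 CPM (estimated counts over the library total scaled by TMM) in control libraries 1 to 3 and at 41.1, 37.6 and 38.6 CPM in *Phf2* KO libraries 1 to 3. The groups did not overlap, and the *Phf2* KO mean was 38.8% of the control mean (log2 fold change -1.37, SE 0.055, adjusted p = 8.32e-09, edgeR's quasi-likelihood test). Cas9 cuts leave a transcript that can still be counted, so this level does not measure the protein.

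None of the 10 members passed an adjusted p of 0.05 in the quasi-likelihood test of edgeR, where 6.48% of all genes tested did, 3.22% with a higher and 3.26% with a lower level in *Phf2* KO cells. At an unadjusted p under 0.05 there were 2 members, *Cbx3* and *Uhrf1*, against 19.4% of all genes. The exactTest of edgeR and limma on TPM also called 0 members, and DESeq2 called 1, *Cbx3*. The fitted change was upward for 4 members and downward for 6, with a median log2 fold change of -0.03 over the members and -0.00096 over all genes tested. Across the members, the 95% intervals of the fold change reached from 0.744 at the lowest to 1.28 at the highest. The CPM of the groups did not overlap for 3 members, *Cbx3* (higher) and *Uhrf1* and *Cbx5* (lower), where the groups did not overlap for 25.1% of all genes.

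**Figure D1:**
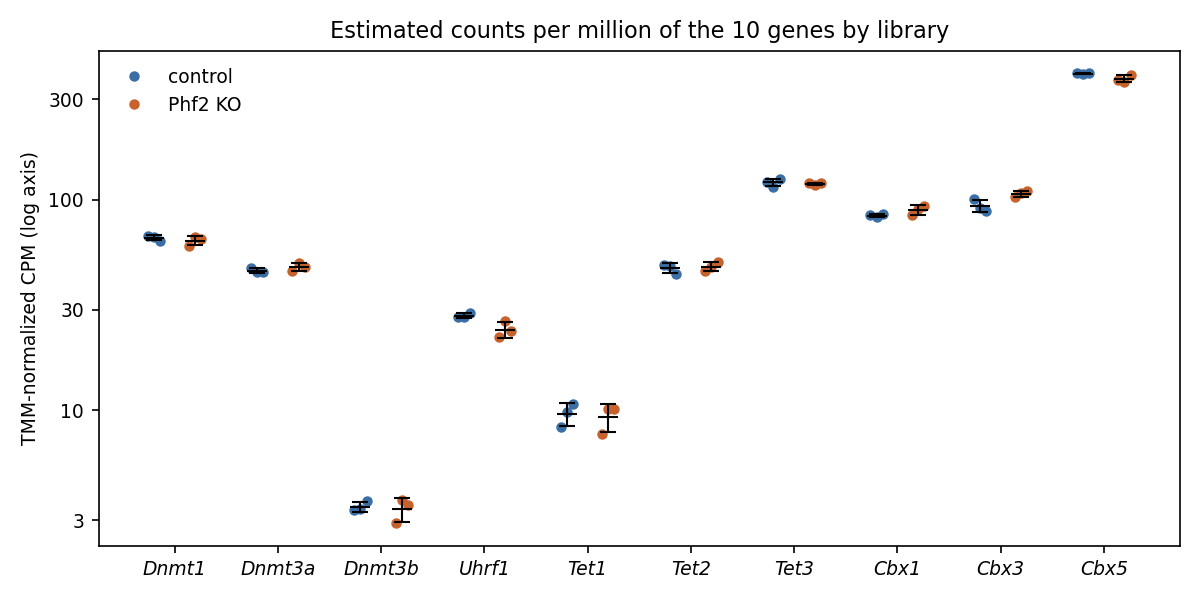
TMM-scaled CPM (log axis) of the 10 members in each library, with control libraries in blue, *Phf2* KO libraries in orange, points for single libraries and bars for the mean and SD (n = 3). The groups were separate for *Cbx3*, *Uhrf1* and *Cbx5* and overlapped for the other 7 members.

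Sequences from the starts of 5 members are shown because the density of CpG sites, the substrate of the DNMT and TET enzymes, differed widely among the members' own promoters. Each is the 250 bases before a RefSeq start (build GRCm38.p6), 5′ to 3′ on the strand of the gene, with each CpG in capitals. The *Dnmt1* sequence (chr9:20952980-20953229, minus strand) precedes the second of 3 *Dnmt1* starts and holds the fewest CpG sites of the 5 shown, close to the median of all promoters. The *Dnmt3b* sequence (chr2:153649199-153649448, plus strand) precedes its only start in the table. The *Uhrf1* sequence (chr17:56304063-56304312, plus strand) precedes a start 992 bases downstream of the annotated gene start, and holds an E2F motif. The *Tet2* sequence (chr3:133544391-133544640, minus strand) precedes a start 749 bases downstream of the annotated gene start. It was the richest in CpG of all the members' starts. The *Cbx5* sequence (chr15:103239853-103240102, minus strand) lies between *Cbx5* and its neighbour *Hnrnpa1*, which is read in the opposite direction.
Dnmt1: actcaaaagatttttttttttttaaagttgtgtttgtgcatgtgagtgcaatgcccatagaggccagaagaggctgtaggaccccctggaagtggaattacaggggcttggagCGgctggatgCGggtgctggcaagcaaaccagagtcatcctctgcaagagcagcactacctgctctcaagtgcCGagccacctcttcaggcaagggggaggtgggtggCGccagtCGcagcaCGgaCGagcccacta
Dnmt3b: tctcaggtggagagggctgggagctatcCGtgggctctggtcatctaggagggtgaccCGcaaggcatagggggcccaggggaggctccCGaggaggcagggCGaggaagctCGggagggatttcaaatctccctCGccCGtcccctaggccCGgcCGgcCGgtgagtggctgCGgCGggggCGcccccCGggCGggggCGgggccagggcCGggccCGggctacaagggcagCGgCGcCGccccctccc
Uhrf1: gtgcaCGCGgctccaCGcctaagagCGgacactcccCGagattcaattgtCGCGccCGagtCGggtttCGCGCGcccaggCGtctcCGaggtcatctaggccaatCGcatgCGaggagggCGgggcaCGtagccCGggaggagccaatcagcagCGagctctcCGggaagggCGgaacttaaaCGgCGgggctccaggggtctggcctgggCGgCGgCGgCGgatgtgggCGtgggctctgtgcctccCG
Tet2: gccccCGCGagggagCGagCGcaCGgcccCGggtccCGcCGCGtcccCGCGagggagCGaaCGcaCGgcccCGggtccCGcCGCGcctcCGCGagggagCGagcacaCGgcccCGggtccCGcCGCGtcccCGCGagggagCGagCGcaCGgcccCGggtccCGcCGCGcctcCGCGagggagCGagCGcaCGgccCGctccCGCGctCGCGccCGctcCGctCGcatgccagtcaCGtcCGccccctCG
Cbx5: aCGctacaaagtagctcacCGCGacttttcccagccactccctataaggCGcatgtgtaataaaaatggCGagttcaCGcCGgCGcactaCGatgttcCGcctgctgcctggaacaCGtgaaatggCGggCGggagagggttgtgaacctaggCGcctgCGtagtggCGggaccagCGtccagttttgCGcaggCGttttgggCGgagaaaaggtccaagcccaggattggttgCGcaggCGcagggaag

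The 10 members had 17 starts in the RefSeq table, and 16 of these held more CpG sites in their 250 bases than the median of 6 over 32851 promoters, whose quartiles were 2 and 16. *Tet2* held 51 CpG sites, at percentile 99.9 of the promoters. The starts of *Dnmt3a* held 38, 40 and 15, those of *Cbx3* 29 and 31, and those of *Uhrf1* 10 and 30. The other starts were *Dnmt3b* with 21, *Tet3* with 17, *Cbx1* with 16, *Tet1* with 15, *Cbx5* with 22 and 7, and *Dnmt1* with 2, 7 and 26. *Dnmt1* thus had the CpG-poorest start of the members, and *Tet2* and *Dnmt3a* the richest. Which of its starts a gene used in these cells was not examined, and the third *Dnmt1* start, with 26, was not CpG-poor.

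The motifs TTTCGCGC, TTTGGCGC and TTTCCCGC, forms of the site bound by the E2F factors that drive genes of DNA replication, were searched on both strands. The share of all promoters that held each of them was 0.256%, 0.417% and 0.895%, and 1.53% held at least 1. Of the members' 17 starts, 3 held a match: the second *Uhrf1* start (TTTCGCGC, position -185 from the start, forward strand), the third *Dnmt1* start (TTTCGCGC, position -219, reverse strand) and the first *Cbx3* start (TTTGGCGC, position -168, forward strand). Each motif holds a CpG, and 16 of the 17 starts were above the median CpG count of all promoters. The share over all promoters was not matched for CpG content or expression, so it cannot show an excess of matches. A match describes letters in this window and is not a measured binding site.

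Of the maintenance factors, *Uhrf1* was lower in all 3 *Phf2* KO libraries without passing the test. *Uhrf1* (ENSMUSG00000001228, chromosome 17, 56303321 to 56323486) stood at 27.8, 27.6 and 29.0 CPM in the control and at 22.3, 26.4 and 23.8 CPM in the *Phf2* KO libraries. Every *Phf2* KO library was below every control library, the nearest being *Phf2* KO replicate 2. The mean was 28.1 ± 0.730 CPM in the control and 24.2 ± 2.11 CPM in *Phf2* KO cells (SD, n = 3 each), a fold of 0.859 with an interval of 0.764 to 0.965, which did not pass the adjustment in edgeR's test (log2 fold change -0.22, SE 0.078, adjusted p = 0.125). It did not pass under any of the 16 alternatives either, with adjusted p from 0.0835 to 0.348 and every fitted change downward. The TPM of *Uhrf1*, a level scaled for transcript length, was likewise separate, at 16.9 to 18.0 in the control and 13.5 to 16.5 in *Phf2* KO libraries.

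*Dnmt1* (ENSMUSG00000004099, chromosome 9, 20907209 to 20959888) was at 67.6, 66.5 and 63.9 CPM in the control and at 60.3, 66.4 and 64.8 CPM in the *Phf2* KO libraries. The groups overlapped, and the lowest of all was *Phf2* KO replicate 1. The fold was 0.967 with an interval of 0.893 to 1.05 (adjusted p = 0.699, edgeR).

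The de novo enzymes overlapped between groups as well. *Dnmt3a* (ENSMUSG00000020661, chromosome 12, 3806007 to 3914443) was at 47.5, 45.2 and 45.5 CPM in the control and at 46.0, 49.8 and 47.9 CPM in the *Phf2* KO libraries, a fold of 1.04 (interval 0.956 to 1.13, adjusted p = 0.669, edgeR). *Dnmt3b* (ENSMUSG00000027478, chromosome 2, 153649450 to 153687730) was at 3.35, 3.40 and 3.69 CPM in the control and at 2.91, 3.75 and 3.53 CPM in the *Phf2* KO libraries. It was the member with the fewest estimated counts, 179 to 239 per library, and had the widest interval, 0.744 to 1.28 (fold 0.976, adjusted p = 0.951, edgeR). *Dnmt3l*, the cofactor of the de novo enzymes in germ cells, had a count of 0 in all 6 libraries.

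Among the TET dioxygenases *Tet3* had the highest level, also per length. In CPM, *Tet3* (ENSMUSG00000034832, chromosome 6, 83362373 to 83459084) was at 121.1, 115.5 and 125.5 in the control and at 119.5, 117.4 and 120.2 in the *Phf2* KO libraries, and all 3 *Phf2* KO values lay within the control range. The fold was 0.986 with an interval of 0.923 to 1.05 (adjusted p = 0.870, edgeR). *Tet2* (ENSMUSG00000040943, chromosome 3, 133463679 to 133545139) was at 49.2, 48.2 and 44.3 CPM in the control and at 45.8, 47.8 and 50.4 CPM in the *Phf2* KO libraries, a fold of 1.02 with an interval of 0.928 to 1.12 (adjusted p = 0.887, edgeR). The *Tet2* groups overlapped, with the lowest value in control replicate 3 and the highest in *Phf2* KO replicate 3. *Tet1* (ENSMUSG00000047146, chromosome 10, 62804570 to 62908996) was at 8.33, 9.80 and 10.8 CPM in the control and at 7.71, 10.2 and 10.1 CPM in the *Phf2* KO libraries, again overlapping (fold 0.968, interval 0.785 to 1.20, adjusted p = 0.912, edgeR).

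Of the 3 HP1 genes, *Cbx3* came nearest to the threshold. *Cbx3* (HP1gamma, ENSMUSG00000029836, chromosome 6, 51470360 to 51483704) was at 100.6, 91.2 and 88.6 CPM in the control and at 102.5, 107.5 and 109.6 CPM in the *Phf2* KO libraries. The groups were separate by a narrow gap, between control replicate 1 and *Phf2* KO replicate 1. The mean was 93.5 ± 6.29 CPM against 106.5 ± 3.65 CPM (SD, n = 3 each), a fold of 1.14 with an interval of 1.05 to 1.23 (log2 fold change 0.19, SE 0.053). Its adjusted p of 0.0504 in edgeR's test lay just past the threshold on the side that is not called. The call depended on the setting: the adjusted p was 0.0243 with DESeq2, 0.0396 with a filter of 1 CPM in at least 3 libraries, 0.0655 with exactTest, 0.0597 with the replicate number as a block, and between 0.0229 (without control replicate 1) and 0.211 when single libraries were left out, with an upward fit in each case.

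*Cbx5* (HP1alpha, ENSMUSG00000009575, chromosome 15, 103191544 to 103239816) was at 397.7, 395.5 and 398.3 CPM in the control and at 369.8, 364.0 and 392.5 CPM in the *Phf2* KO libraries. Every *Phf2* KO library was below the control libraries, which lay within 3 CPM of each other, and *Phf2* KO replicate 3 came close to them. The fold was 0.945 with an interval of 0.889 to 1.01, which did not pass the test (log2 fold change -0.08, SE 0.041, adjusted p = 0.306, edgeR), and in TPM the groups overlapped. *Cbx1* (HP1beta, ENSMUSG00000018666, chromosome 11, 96789127 to 96808640) was at 84.6, 82.5 and 85.2 CPM in the control and at 84.4, 90.8 and 93.7 CPM in the *Phf2* KO libraries. These groups overlapped through *Phf2* KO replicate 1, and the fold was 1.07 with an interval of 0.990 to 1.15 (adjusted p = 0.340, edgeR).

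**Figure D2:**
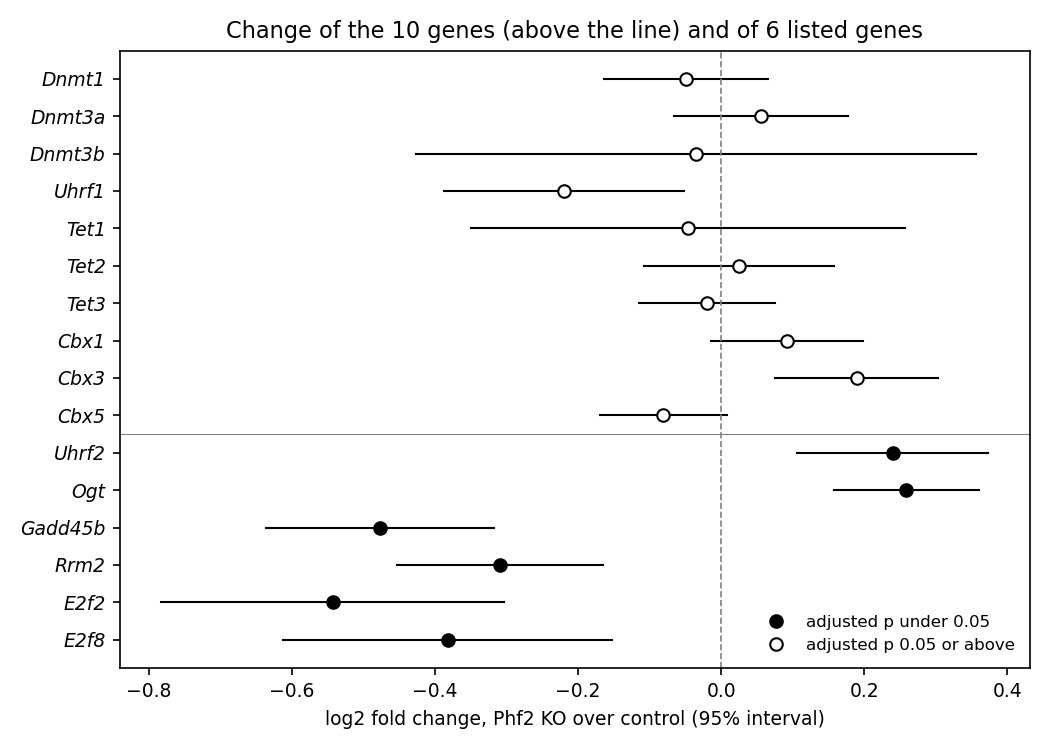
Log2 fold change (*Phf2* KO minus control) of the 10 members with 95% intervals from edgeR's quasi-likelihood fit, and, under the line, of 6 genes of the pathway and S phase lists. Filled points passed an adjusted p of 0.05. The members are all open points, and the intervals of *Cbx3* (0.07 to 0.30) and *Uhrf1* (-0.39 to -0.05) leave out 0.

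*Cbx3* has 8 rows named as its pseudogenes (*Cbx3-ps1* to *Cbx3-ps8*) in the matrix, whose counts together came to between 3.32% and 5.74% of the *Cbx3* count. The *Cbx3* level is uncertain to the extent that reads were split among these rows, which was not examined. *Cbx3-ps6* was at 2.75, 2.40 and 2.92 CPM in the control and at 3.43, 5.06 and 2.94 CPM in the *Phf2* KO libraries, separate between groups in the same direction as *Cbx3* (log2 fold change 0.50, SE 0.22, adjusted p = 0.238, edgeR). *Cbx3-ps7* was near or below 1 CPM in most libraries, at 0.621 to 1.43 CPM over all 6, and overlapped (adjusted p = 0.856, edgeR).

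Both *Cbx3* and *Cbx5* begin head to head with an hnRNP gene, a family that binds pre-mRNA and takes part in splicing. The start of *Hnrnpa2b1* lies 466 bases from that of *Cbx3*, and its mean was 614.9 ± 15.1 CPM in the control and 654.4 ± 19.9 CPM in *Phf2* KO cells (SD, n = 3 each), separate but not past the threshold (log2 fold change 0.09, SE 0.039, adjusted p = 0.222, edgeR). The start of *Hnrnpa1* lies 616 bases from that of *Cbx5*. *Hnrnpa1* had means of 410.4 ± 7.71 and 436.8 ± 20.5 CPM (SD, n = 3 each) and overlapping groups (log2 fold change 0.09, adjusted p = 0.275, edgeR), so its fitted change had the opposite sign to that of *Cbx5*.

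Compared per length, the members spanned a wide range of levels. By mean TPM in the control, the order was *Cbx5* (113.7), *Cbx3* (105.5), *Cbx1* (52.5), *Tet3* (25.0), *Dnmt1* (24.1), *Uhrf1* (17.5), *Dnmt3a* (10.6), *Tet2* (8.98), *Dnmt3b* (1.95) and *Tet1* (0.992). The HP1 genes thus stood above every DNA methylation enzyme, with *Cbx5* at percentile 92.3 of the TPM of all genes tested and *Tet1* at percentile 19.6. Over all 6 libraries, the ranges of *Cbx5* and *Cbx3*, of *Tet3* and *Dnmt1*, of *Dnmt3a* and *Tet2*, and of *Dnmt3b* and *Tet1* overlapped, so the order within these pairs is not settled by the spread. With CPM per kb of the longest annotated transcript in place of TPM, *Cbx1* (35.4) came before *Cbx3* (31.9), *Dnmt1* (11.3) before *Tet3* (11.1), and *Tet2* (5.15) before *Dnmt3a* (4.76).

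The makeup of each family, as the share of a gene in the summed TPM of its family within a library, was compared by two-sided exact permutation tests over the libraries. With 3 libraries against 3, an exact permutation test cannot go below p = 0.1, and p-values were adjusted over the 9 shares. *Dnmt1* made up 65.8% ± 0.984 of the DNMT sum in the control and 65.9% ± 1.47 in *Phf2* KO cells, *Dnmt3a* 28.9% and 28.7%, and *Dnmt3b* 5.38% and 5.37% (SD, n = 3 each). These shares overlapped between the groups. Shares of summed CPM, which are not per length, put *Dnmt1* at 57.1% in the control and 55.4% in *Phf2* KO cells, lower in all 3 *Phf2* KO libraries (exact permutation p = 0.1, adjusted 0.18), so the direction of the *Dnmt1* and *Dnmt3a* shares turned with the unit.

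Within the HP1 sum of TPM, the *Cbx3* share was 40.2%, 38.1% and 38.1% in the control and 42.5%, 44.9% and 42.2% in the *Phf2* KO libraries. The *Cbx5* share was 40.3%, 43.0% and 42.3% in the control and 38.4%, 34.4% and 37.3% in the *Phf2* KO libraries. Both shares were separate between groups, so *Cbx3* was the larger of the pair in every *Phf2* KO library while *Cbx5* was the larger, at times by a small margin, in every control library. The differences were 4.38 and -5.13 percentage points (exact permutation p = 0.1 each, adjusted 0.225). In summed CPM they were 2.39 and -3.43 points, also separate (exact permutation p = 0.1 each, adjusted 0.18), with *Cbx5* the larger throughout. *Cbx5* was also the larger in all 6 libraries in CPM per kb of the longest annotated transcript. In the *Phf2* KO libraries it was at 42.0 against 35.0, 41.4 against 36.7 and 44.6 against 37.5 for *Cbx3*. The exchange of order was thus seen in TPM alone, but the other units cannot decide it. Summed CPM is not per length, and the longest *Cbx3* transcript, 2926 bases, exceeds the 1854 to 1960 bases that its count and TPM imply. The *Cbx1* share of TPM was 19.3% in the control and 20.1% in *Phf2* KO cells and overlapped (exact permutation p = 0.3, adjusted 0.45). In summed CPM the *Cbx1* share was 14.5% to 14.9% in the control and 15.2% to 16.1% in the *Phf2* KO libraries, separate by 1.04 percentage points between the means (exact permutation p = 0.1, adjusted 0.18).

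**Figure D3:**
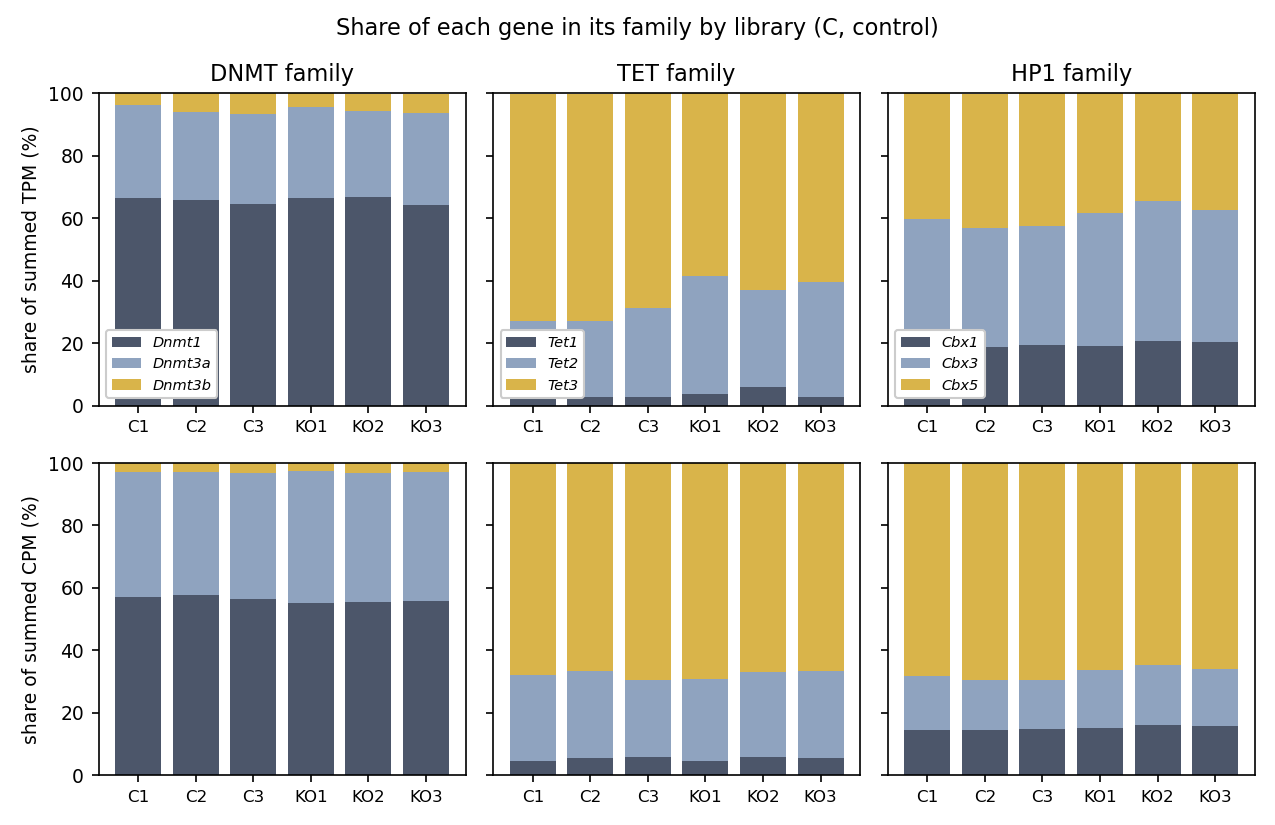
Share (%) of each gene in the summed TPM of its family (upper row) and in its summed CPM (lower row) in control libraries C1 to C3 and *Phf2* KO libraries KO1 to KO3. The *Cbx3* part was 38.8% of the TPM sum in the control and 43.2% in *Phf2* KO cells, and the *Tet2* part differed between groups in TPM (25.6% and 35.2%) but little in CPM (26.6% and 27.2%).

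The TET family gave different pictures in the 2 units. In TPM, *Tet2* was at 8.72, 7.64 and 10.6 in the control and at 13.2, 13.2 and 11.9 in the *Phf2* KO libraries. These groups were separate, whereas the *Tet2* counts above were not, and limma on TPM did not call the gene (adjusted p of at least 0.144). The *Tet2* share of the TET sum of TPM was 25.6% ± 2.31 and 35.2% ± 3.63, and the *Tet3* share was 71.6% ± 2.33 and 60.5% ± 2.21 (SD, n = 3 each, exact permutation p = 0.1 each, adjusted 0.225). In summed CPM the same differences were 0.610 and -0.467 percentage points, with p = 0.8 and p = 0.6 in the exact permutation test. The *Tet1* share of TPM was 2.84% ± 0.0887 in the control and 4.24% ± 1.68 in *Phf2* KO cells (SD, n = 3 each), overlapping, with a difference of 1.40 points (exact permutation p = 0.3, adjusted 0.45). That difference was 0.470 points without *Phf2* KO replicate 2 and 2.11 points without *Phf2* KO replicate 3, and it turned to -0.142 points in summed CPM.

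The count of a gene divided by its TPM, set to the same scale in each library with 835 genes of 1 annotated transcript, gives the transcript length that the pair of values implies. This was looked at after the disagreement had been seen. Of those 835 genes, at least 97.2% per library came out within 5% of their annotated length. *Tet2* implied 7403 to 13537 bases, where its longest annotated transcript has 9179, and exceeded that length by more than 5% in 2 libraries. *Tet1* (8509 to 24638 bases, longest 14369) exceeded it in 4 libraries, *Tet3* (9538 to 13709, longest 10904) in 2 and *Dnmt3b* (3390 to 5127, longest 4320) in 1. *Cbx1* exceeded its longest transcript of 2377 bases in all 6 libraries, at 3377 to 3514. In these libraries the counts and TPM of these genes stand in a ratio that no annotated transcript gives. Of the 10575 genes with a mean of at least 5 TPM, 12.3% exceeded their longest transcript in the same way by the mean over libraries. The TPM of the TET genes, *Dnmt3b* and *Cbx1*, and the shares and the order built on it, are to be read with that limit. So is the CPM per kb of *Cbx1*, which used its longest annotated transcript. The implied length overlapped between the groups for all 10 members. Groups did not overlap for 10.4% of the 9086 genes with more than 1 transcript and a mean of at least 5 TPM. *Dnmt3b* and *Tet1* lie below that TPM.

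**Figure D4:**
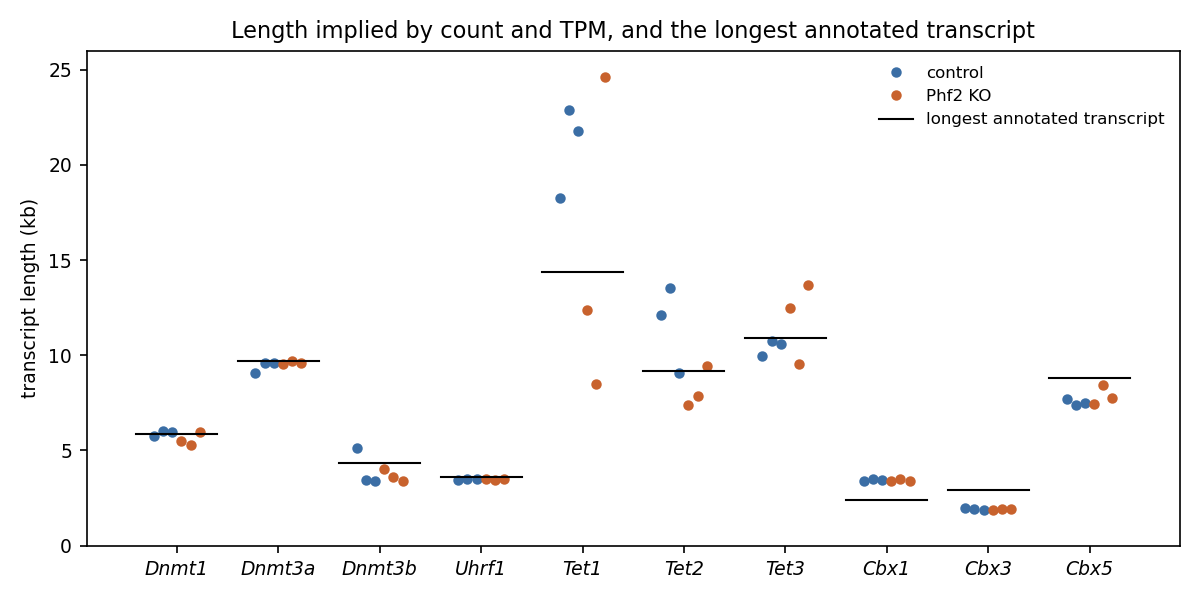
Implied transcript length (kb) of the 10 members in each library (control blue, *Phf2* KO orange), with a line at the longest annotated transcript. *Cbx1* lies above its line in all 6 libraries, *Tet1* spreads most between libraries, and *Uhrf1*, *Dnmt3a* and *Cbx3* spread little.

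The cofactors of DNA methylation were read from the same fit. Of a list of 15 genes, 14 were tested, and 1 passed upward and 0 downward, where 3.22% and 3.26% of all genes tested did. The median log2 fold change was 0.02, against -0.00096 over all genes tested. The gene that passed was *Uhrf2*, the paralogue of *Uhrf1*, which binds hydroxymethylated and hemimethylated DNA. *Uhrf2* was at 72.9, 64.3 and 77.5 CPM in the control and at 83.6, 83.0 and 86.9 CPM in the *Phf2* KO libraries. Every *Phf2* KO library was higher (log2 fold change 0.24, SE 0.062, adjusted p = 0.0343, edgeR), the opposite direction to *Uhrf1*, but the call held in only 1 of the 6 fits without a library, that without control replicate 3, and the adjusted p reached 0.380 over all alternatives. The next smallest p was that of *Cdca7l*, a relative of a chromatin factor needed for DNA methylation, with a mean of 10.9 ± 0.496 CPM in the control and 13.3 ± 0.102 CPM in *Phf2* KO cells (SD, n = 3 each), which did not pass (log2 fold change 0.28, adjusted p = 0.111, edgeR).

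On the side of oxidation and repair, 19 of 21 genes were tested, and 1 passed in each direction (median log2 fold change 0.03). Of all genes tested, 3.22% passed upward and 3.26% downward. *Ogt*, the O-GlcNAc transferase that forms complexes with TET proteins, was at 371.3, 336.6 and 369.0 CPM in the control and at 431.5, 412.9 and 444.0 CPM in the *Phf2* KO libraries. It was higher in every *Phf2* KO library (log2 fold change 0.26, SE 0.047, adjusted p = 0.00474, edgeR). *Gadd45b*, a stress-inducible gene linked to active demethylation, was at 33.2, 31.4 and 29.3 CPM in the control and at 21.5, 23.0 and 23.0 CPM in the *Phf2* KO libraries, lower in each (log2 fold change -0.48, SE 0.074, adjusted p = 0.00154, edgeR). Both calls held in all 6 fits that left out 1 library. In the fits of limma on TPM *Gadd45b* passed and *Ogt* did not.

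In edgeR's test, none of the 11 genes in a list of methyl-CpG readers passed in either direction, where 6.48% of all genes tested did. That list also held subunits of the NuRD complex, *Gatad2a* among them. None of the 32 HP1 partners, a list that held the H3K9 methyltransferases and their cofactors, passed either. At an unadjusted p under 0.05 there were 3 genes of the reader list (2 higher, 1 lower) and 6 HP1 partners (5 higher, 1 lower). Of all genes tested, 19.4% were at such a p. The exactTest called 0 of both lists, and DESeq2 called 0 readers and 1 partner, *Psip1*. *Psip1* also passed with a filter of 1 CPM in at least 3 libraries, and 1 other partner, *Adnp*, a zinc-finger protein of chromatin complexes with HP1, passed upward without *Phf2* KO replicate 3. The smallest p in the reader list were those of *Gatad2a* (log2 fold change -0.15, adjusted p = 0.101, edgeR) and *Zbtb33*, which encodes the reader Kaiso (log2 fold change 0.17, adjusted p = 0.238, edgeR). Among the partners they were those of *Psip1*, a chromatin-binding coactivator, at 94.1 ± 1.72 CPM in the control and 104.5 ± 1.70 CPM in *Phf2* KO cells (SD, n = 3 each, log2 fold change 0.15, adjusted p = 0.0513, edgeR), and *Ehmt1*, a methyltransferase that writes H3K9me2 (log2 fold change 0.15, adjusted p = 0.126, edgeR). The median log2 fold change was 0.02 in both lists.

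Genes of S phase and mitosis were listed because *Dnmt1* and *Uhrf1* are expressed most in replicating cells. Of the 32 genes, all tested, 3 passed downward and 0 upward, where 3.26% of all genes tested passed downward and 3.22% upward. In this list 21 were fitted lower, as were 8698 of the 17310 genes tested. The median log2 fold change of the list was -0.07. *Rrm2*, a subunit of ribonucleotide reductase, was at 70.5, 74.2 and 77.1 CPM in the control and at 53.3, 61.5 and 64.2 CPM in the *Phf2* KO libraries (log2 fold change -0.31, SE 0.067, adjusted p = 0.0138, edgeR). *E2f2*, an activating E2F factor, had means of 43.0 ± 5.22 and 29.5 ± 3.88 CPM (SD, n = 3 each, log2 fold change -0.54, adjusted p = 0.0147, edgeR), and *E2f8*, a repressive one, 16.9 ± 0.952 and 13.0 ± 1.65 CPM (SD, n = 3 each, log2 fold change -0.38, adjusted p = 0.0492, edgeR). The groups were separate for all 3. The count of calls was 2 with exactTest, 0 in both fits of limma on TPM, and 0 to 2 when single libraries were left out: 0 without control replicate 2, and 1 (*Rrm2*) without *Phf2* KO replicate 2 or 3. *Mki67*, the common mark of cycling cells, had a log2 fold change of 0.01 (adjusted p = 0.974, edgeR), and *Pcna*, the replication clamp that also binds DNMT1, one of -0.06 (adjusted p = 0.686, edgeR). The part of cell cycling in the *Uhrf1* values was not tested.

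Germline genes whose promoters are held methylated in somatic cells were also listed. Of 24 such genes, 12 had a count of 0 in all 6 libraries and 6 passed the filter. Over all genes tested, 3.22% passed upward and 3.26% downward, and of these 6 genes 0 passed upward and 1 downward. That gene, *Hsf2bp*, which encodes a meiotic recombination factor, was at 2.74, 2.44 and 2.06 CPM in the control and at 1.07, 1.45 and 1.24 CPM in the *Phf2* KO libraries (log2 fold change -0.94, SE 0.24, adjusted p = 0.0341, edgeR). Its level was low throughout, and the call held in 1 of the 6 fits that left out a library, that without control replicate 3. The next smallest p was that of *Sycp1*, which encodes a protein of the synaptonemal complex, at 6.01, 5.99 and 4.79 CPM in the control and at 4.21, 4.15 and 3.86 CPM in the *Phf2* KO libraries, lower in each without passing (log2 fold change -0.46, SE 0.16, adjusted p = 0.115, edgeR). At an unadjusted p under 0.05, 0 of the 6 were higher and 2 lower, against 19.4% of all genes tested in either direction. DNA methylation itself was not measured in these libraries.

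The identity of the cells was checked by marker lists. All 12 muscle markers were tested and their summed level was 8713 to 10133 CPM in the control and 7003 to 7776 CPM in the *Phf2* KO libraries. Of these, 7 passed downward and 0 upward (median log2 fold change -0.37), where 3.26% of all genes tested passed downward and 3.22% upward. Among the 7 were *Ckm*, the muscle creatine kinase, with a log2 fold change of -0.78 (SE 0.070, adjusted p = 8.70e-05, edgeR), and *Mymk*, which encodes the fusion protein Myomaker, with -0.50 (SE 0.059, adjusted p = 0.000298, edgeR). The count was 5 to 10 when single libraries were left out. Of 22 markers of other cell types, 6 were at 0 in all libraries and 9 were tested. Those 9 summed to 178 to 197 CPM in the control and 219 to 226 CPM in the *Phf2* KO libraries. The highest of them were *Runx2* (means 54.3 CPM in the control and 67.3 CPM in *Phf2* KO cells), *Sox9* (47.0 and 46.9), *Pdgfra* (42.4 and 46.6) and *Cebpa* (32.9 and 51.8). *Sox9* and *Pdgfra* did not pass in edgeR's test. The osteogenic factor *Runx2* (log2 fold change 0.31, adjusted p = 0.00697, edgeR) and the adipogenic factor *Cebpa* (log2 fold change 0.65, adjusted p = 0.000464, edgeR) were higher, and the neuronal tubulin *Tubb3* was lower (log2 fold change -0.62, adjusted p = 0.0445, edgeR). The adipocyte markers *Adipoq* and *Plin1* did not pass the filter. *Adipoq* had a count of 8 in control replicate 3 and 0 in the other libraries, and *Plin1* had 0 in all 6. The *Cebpa* call held in all 6 fits without a library, that of *Runx2* was lost without control replicate 2 or *Phf2* KO replicate 2, and that of *Tubb3* held only without control replicate 3. The endothelial, immune and epithelial markers *Pecam1*, *Ptprc* and *Epcam* did not pass the filter on low counts. Another endothelial marker, *Tek*, passed the filter, with means of 0.357 CPM in the control and 0.155 CPM in *Phf2* KO cells. The immune marker *Cd68* also passed it, at 1.66 and 1.60 CPM. Neither changed past the threshold (adjusted p = 0.567 for *Tek* and 0.943 for *Cd68*, edgeR). The part of this difference in muscle markers in the values of the members was not tested.

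Genes whose profile over the 6 libraries was most like that of *Uhrf1* were taken by the smallest root mean square difference of centred log2 CPM among the 10923 genes whose mean reached 5 CPM. They were *Atp6v0b*, a subunit of the vacuolar proton pump (0.024), *Fam53b* (0.025) and *Evi2a* (0.033). *Atp6v0b* had means of 128.9 ± 4.65 CPM in the control and 110.3 ± 7.17 CPM in *Phf2* KO cells (SD, n = 3 each). The fitted log2 fold changes were -0.23 for *Atp6v0b*, -0.24 for *Fam53b* and -0.19 for *Evi2a*, and since the likeness includes the difference between groups, their direction is fixed by the choice and is given without a test.

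**Figure D5:**
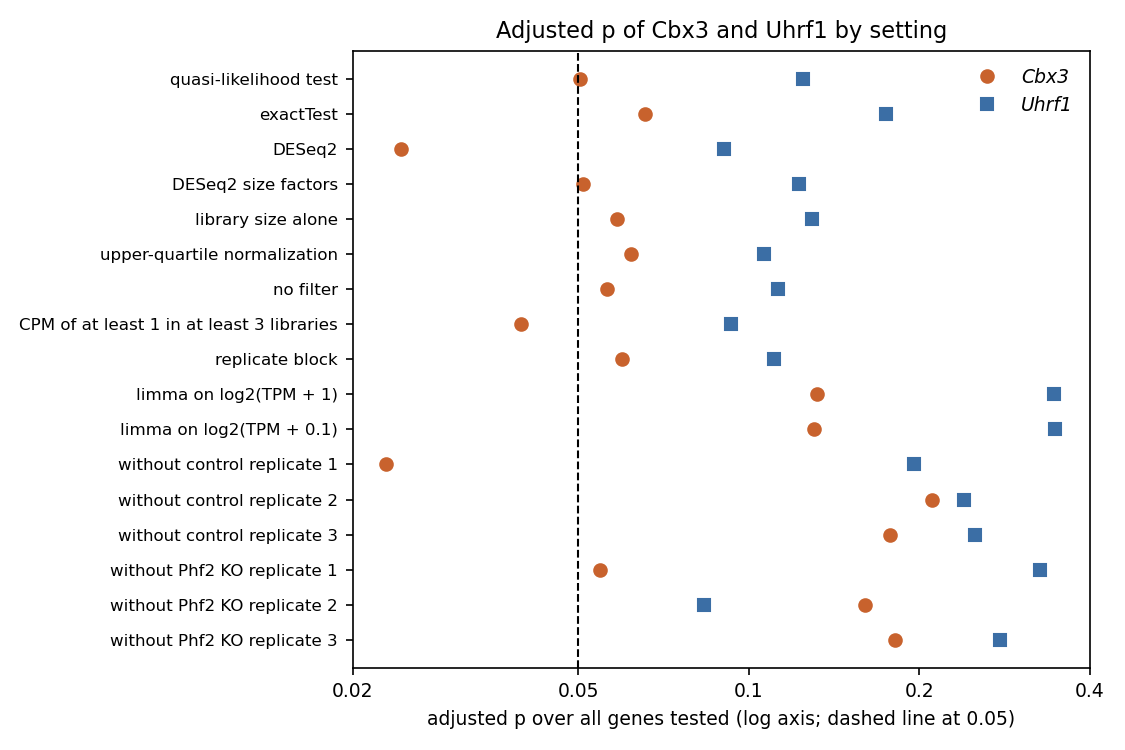
Adjusted p (log axis) of *Cbx3* and *Uhrf1* in the quasi-likelihood test of edgeR and under the 16 alternatives, with a dashed line at 0.05. *Cbx3* lies below the line under 3 alternatives, with values from 0.0229 to 0.211, and *Uhrf1*, from 0.0835 to 0.348, under none.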

How the data were processed

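RNA-seq of 3 control and 3 *Phf2* KO libraries of C2C12 cells was analysed, with groups taken from the labels. HISAT2 (alignment, mm10 build) and StringTie (gene values) were run by the authors. Versions, annotation and strand setting are not given in the sources used here. The deposited matrix holds estimated counts per gene, derived by the authors from coverage and not scaled for depth. Each library also has a deposited table of TPM, a signal the authors scaled within each library for transcript length and depth, of which the rows of reference genes were used. Protein and chromatin assays were not analysed here.

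The tests used edgeR 4.0.16 under R 4.3.3: filterByExpr (minimum count 10), TMM scaling, and the robust quasi-likelihood test with Benjamini-Hochberg adjustment over 17310 genes, threshold 0.05, prior count 0.125. The common biological coefficient of variation was 0.135. The library totals, 52526109 to 67502788 estimated counts, set the precision, and the intervals shown come from the fit (95%). Shares and implied lengths were compared by exact permutation tests. Coordinates are those of GENCODE M21 (GRCm38, the assembly of mm10), and sequences are from RefSeq. Figures were drawn with matplotlib 3.10.9 in Python 3.11.15. The procedure was tested on simulated data.

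Genes named are *Phf2*, the 10 members, head-to-head neighbours with starts within 1000 bases, pseudogene rows of a member's symbol, of each list at most 6 genes past the threshold with the largest change and, where fewer than 2 passed, the 2 with the smallest p, and the 3 profiles nearest to *Uhrf1*. *Mki67*, *Pcna*, *Dnmt3l*, *Adnp*, *Pecam1*, *Ptprc*, *Epcam*, *Tek*, *Cd68*, *Adipoq*, *Plin1*, *Sox9* and *Pdgfra* were named beside this rule, after their values were seen. The members and lists were chosen with earlier results of these data known.

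Whether the replicate numbers carry a pairing was looked at in the data. Across 10923 genes, deviations from the group means of same-numbered libraries had correlations of 0.183, 0.345 and 0.234. Those of different numbers ran from -0.290 to 0.090. Deviations within a group of 3 cancel out, so these correlations depend on each other and do not settle whether libraries were paired. The study describes no pairing, so the block was an alternative. The others were exactTest, DESeq2 1.42.0, 3 other scalings, 2 other filters, limma 3.58.1 on log2(TPM + 1) and log2(TPM + 0.1), shares of CPM and leaving out each library. CPM per kb was chosen after seeing the data.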

Additional observations from a re-analysis of the deposited data

How the results depend on the processing

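With 3 wells of 1 pool in each group, the intervals of the low members *Dnmt3b* and *Tet1* still hold folds of 0.744 to 1.28 and 0.785 to 1.20. Members past the threshold numbered 0, and 1 (*Cbx3*) with DESeq2, with 1 CPM in at least 3 libraries and without control replicate 1 (0 to 1 when single libraries were left out). In limma on log2(TPM + 1) and log2(TPM + 0.1), the pathway lists gave 1 call in place of 3, and the S phase list 0 in place of 3 (0 to 2 without single libraries). Those fits turned the log2 fold change of *Dnmt1* to 0.0465 and 0.0482, of *Dnmt3b* to 0.0445 and 0.0667, and of *Tet1* to 0.34 and 0.53. Without single libraries it ran from -0.111 to 0.0652 for *Dnmt3b*, from -0.144 to 0.0750 for *Tet1*, from -0.0216 to 0.0583 for *Tet2* and from -0.0513 to 0.00657 for *Tet3*. In shares of CPM, the *Dnmt1* difference was -1.68, the *Dnmt3a* difference 1.75 and the *Tet1* difference -0.142 percentage points, against 0.116, -0.107 and 1.40 in shares of TPM. Shares of TPM without single libraries differed by -0.428 to 0.950 points for *Dnmt1*, -0.542 to 0.543 for *Dnmt3a* and -0.849 to 0.584 for *Dnmt3b*. With the replicate number as a block, 0 members passed and no call of a member changed (*Cbx3*: adjusted p = 0.0597, edgeR). The share differences kept their values in the block, where the smallest p of the exact sign-flip test is 0.25. Over all genes 1122 passed, against 158 and 178 in limma and 468, 577 and 613 without control replicate 2, *Phf2* KO replicate 2 and *Phf2* KO replicate 3. The median log2 fold change of all genes lay between -0.0111 and -0.000958 over the scalings. The cause of these differences was not tested.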
